A study of Mus musculus with 24 samples.

Results

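The collagen chain genes were described in 4 tissues of 6 male mice, the liver, the brain, the heart and skeletal muscle. A gene was counted as a collagen chain gene when a probe of the array carried the accession of a gene whose symbol has the form Col, number, a, number. A gene with more than 1 probe was represented by its brightest probe, judged by the mean over the 24 arrays. The rule used names and mean brightness alone, and it found 44 genes, with 64 probes, among 21364 named genes on the array. 14 of the 44 genes had more than 1 probe.

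RNA of each of the 4 tissues came from the same 3 WT and 3 *Rap1* KI/KI mice, with 1 1-colour Agilent array for each mouse and tissue. The knockin allele, I312R in RAP1, was made with Crispr/Cas9, and the line was then back-crossed to C57BL6 by the labels, named C57BL/6N in the study's methods. WT1 and KI1 were 5 months old, and WT2, WT3, KI2 and KI3 were 2 months old. No mouse received a treatment by the labels, and each p-value below measures the spread between these few mice. *Terf2ip*, which encodes RAP1, had log2 levels of 1.17 to 2.07 in WT tissues and 0.69 to 1.90 in *Rap1* KI/KI tissues, and a substitution in the protein is not something its level can check.

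A level is the background-subtracted intensity over the 75th percentile of its array, on the log2 scale, so that 0 is the 75th percentile and each unit is a doubling. Levels are compared for the same probe between arrays, never between probes. The 75th percentile ran from 470.7 to 1389 intensity units, and 57.6% to 73.5% of probes were well above background, a call of the scanner software. Summed over 5 markers on a linear scale, in multiples of the 75th percentile, skeletal muscle fibre markers were 2470 to 3310 in muscle and at most 189 elsewhere, cardiomyocyte markers 1700 to 3210 in heart and at most 925 elsewhere, and neuron markers 283 to 443 in brain and at most 55.9 elsewhere. The 4 hepatocyte markers on the array summed to 1300 to 2530 in liver and to at most 110 elsewhere. Some arrays stood apart in a marker sum, and their values are given here or beside the results that they touch. The brain of KI3 had the highest fibroblast marker sum of the brains, 45.0 against 21.0 to 31.2, and the muscle of KI3 had a neuron marker sum of 55.9 against 11.5 to 18.5 in the other muscles. The liver of KI1 had an adipocyte marker sum of 32.7, against 2.93 to 8.5 in the other livers, and its part in the liver differences was not tested. All liver arrays shared a slide, as did all muscle arrays. The brain arrays of WT1 and KI1 were on another slide than those of the other 4 mice, so in the brain slide and age cannot be told apart.

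Collagen chains wind around each other as helical trimers, and each collagen type is built from chains of its own genes. Fibrillar collagens such as types I, III and V form the tensile fibrils of connective tissue, type IV forms the sheet of basement membranes around vessels and muscle fibres, type VI forms beaded filaments, and fibril-associated collagens coat fibrils. In these tissues most fibrillar collagen is made by fibroblasts and related stromal cells, whereas vascular cells and parenchymal cells make much of the basement membrane collagen. In bulk tissue, fewer cells of a type and less RNA per cell cannot be told apart.

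Promoter sequences are shown for a pair of genes that share a start region and for a pair of fibrillar chains whose levels are described at length. The RefSeq table of GRCm38.p6 held windows for 35 of the 44 genes, 38 windows in all, each from 250 bases before to 50 bases after an annotated start. *Col4a1* and *Col4a2*, which encode the chains of the common type IV network, are annotated on opposite strands of chromosome 8 and overlap there by 85 bases. Their windows lie at chr8:11312777-11313076 on the minus strand and chr8:11312555-11312854 on the plus strand, and capitals mark the 78 bases that the windows have in common, read on the strand of each gene:
Col4a1: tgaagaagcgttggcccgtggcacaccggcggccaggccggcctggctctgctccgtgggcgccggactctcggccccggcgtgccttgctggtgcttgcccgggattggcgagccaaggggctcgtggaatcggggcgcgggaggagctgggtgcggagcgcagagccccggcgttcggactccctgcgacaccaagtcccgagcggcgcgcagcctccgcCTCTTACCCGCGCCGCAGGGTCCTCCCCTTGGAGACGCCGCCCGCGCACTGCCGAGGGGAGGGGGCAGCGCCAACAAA
Col4a2: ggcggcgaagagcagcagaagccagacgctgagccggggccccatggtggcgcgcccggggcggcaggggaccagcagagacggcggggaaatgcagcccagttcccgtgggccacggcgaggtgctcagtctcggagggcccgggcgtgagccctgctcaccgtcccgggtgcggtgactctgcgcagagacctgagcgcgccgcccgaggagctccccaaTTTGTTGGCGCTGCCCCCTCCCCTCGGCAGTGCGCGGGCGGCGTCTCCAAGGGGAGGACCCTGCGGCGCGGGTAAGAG

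The windows of *Col1a2*, which encodes the second chain of type I collagen, and of *Col3a1*, which encodes the type III chain, are at chr6:4505368-4505667 and chr1:45311288-45311587, both on the plus strand. Capitals mark CCAAT on either strand in the first and TATAAA in the second:
Col1a2: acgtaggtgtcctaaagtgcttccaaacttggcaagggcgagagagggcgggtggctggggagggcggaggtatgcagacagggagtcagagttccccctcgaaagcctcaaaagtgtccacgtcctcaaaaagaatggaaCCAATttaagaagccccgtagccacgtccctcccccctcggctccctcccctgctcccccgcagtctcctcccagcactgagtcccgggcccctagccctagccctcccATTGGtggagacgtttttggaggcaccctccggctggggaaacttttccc
Col3a1: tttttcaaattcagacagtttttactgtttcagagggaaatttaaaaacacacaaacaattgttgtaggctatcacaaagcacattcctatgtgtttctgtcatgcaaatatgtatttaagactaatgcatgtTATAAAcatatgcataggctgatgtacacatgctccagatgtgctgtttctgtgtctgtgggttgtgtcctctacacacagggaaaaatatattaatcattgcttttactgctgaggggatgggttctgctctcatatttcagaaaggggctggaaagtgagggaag

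CCAAT, searched on both strands, was in 13 of the 38 windows, 34.2%, and in 37.4% of all 32851 windows of the table. TATAAA was in 5 windows, 13.2%, against 13.6% of all windows. GGGCGG, the core of a GC box, was in 23 windows, 60.5%, against 35.7% of all. A match of letters is a description and not a bound site. Windows were not found for *Col1a1*, *Col2a1*, *Col4a3*, *Col5a2*, *Col9a3*, *Col12a1*, *Col14a1*, *Col22a1* and *Col26a1*. Besides *Col4a1* and *Col4a2*, the annotation has *Col4a3* and *Col4a4* overlapping by 114 bases on chromosome 1, and *Col4a5* and *Col4a6* lying 1274 bases apart on the X chromosome.

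By the probe that stood for each gene, the collagen chain genes were measured most widely in the brain and least widely in the liver. Of the 44 genes, 36 were well above background on all 6 arrays of the brain, 32 on those of the heart, 32 on those of muscle and 23 on those of the liver. On no array of a tissue were 10 genes (liver), 3 (brain), 7 (heart) and 6 (muscle). Counting any probe of a gene, these numbers were 8, 2, 7 and 6, since dimmer probes of *Col25a1* and *Col9a1* were above background on liver arrays and one of *Col15a1* on brain arrays. Each gene was above background on at least 1 array, and 23 were above it on all 24. Over all genes tested, those above background on all 6 arrays numbered 15773 in brain, 14854 in heart, 14174 in muscle and 14755 in liver. The brain thus had the most over all genes as well, whereas muscle and not liver had the fewest.

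Which tissue each chain was highest in was asked in WT mice, with limma on the 12 WT arrays. 42 of the 44 genes cleared background on 3 or more of these arrays and were tested, and 39 of these differed among the 4 tissues at an adjusted p under 0.05, 92.9%, against 88.4% of all genes tested. In the *Rap1* KI/KI mice, which this fit did not use, 40 of 42 differed, against 90.5% of all genes. Of the 44 genes, 17 had their highest WT mean in muscle, 11 in heart, 11 in brain and 5 in liver, and 41 had it in the same tissue in *Rap1* KI/KI mice. The exceptions were *Col9a1*, *Col6a5* and *Col28a1*, of which *Col6a5* and *Col28a1* were above background on no muscle array although their WT means were highest there. The split by highest tissue and its agreement between genotypes were not computed over all genes, so these counts describe the collagen chain genes alone. RNA of brain and liver was extracted with another kit than RNA of heart and muscle, and each tissue lay on 1 or 2 of the 3 slides, so the part of kit and slide in these differences was not tested.

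**Figure D1:**
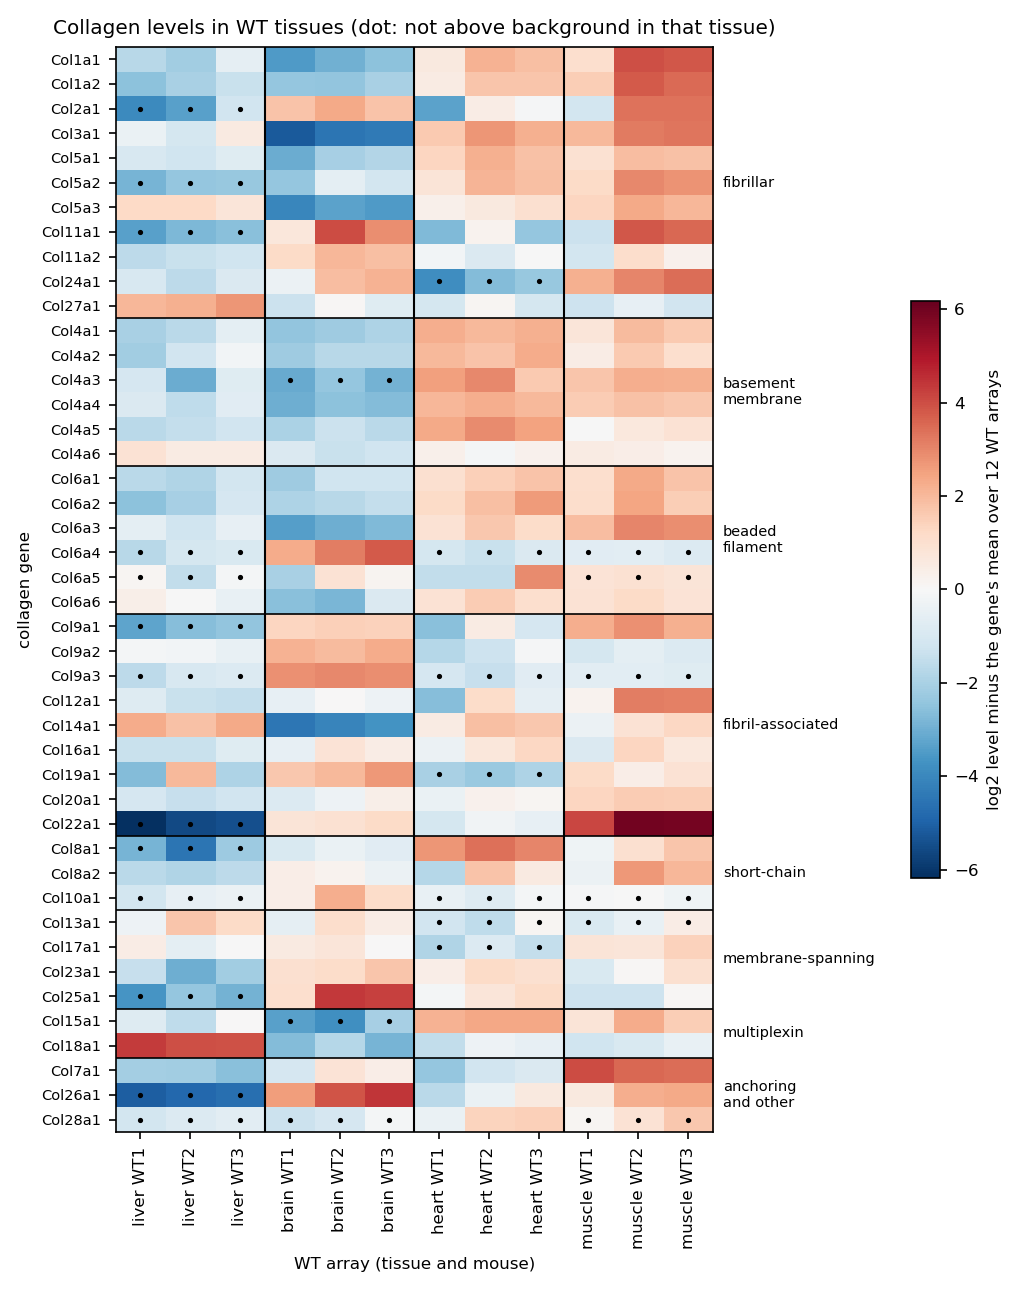
Log2 level of the 44 collagen chain genes (y axis, by class) on the 12 WT arrays (x axis, 3 mice in each of 4 tissues), as colour relative to the mean of the gene over these arrays, with a dot where the probe shown was above background on no WT array of a tissue. By WT means, 17 genes were highest in muscle and 5 in liver.

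Muscle exceeded the other tissues for more chains than the reverse. Between liver and muscle, 31 of the 42 genes tested were lower in liver, 73.8%, and 3 were higher, 7.14%, against 30.6% lower and 31.6% higher over all genes. Between brain and muscle, 25 were lower in brain, 59.5%, and 7 higher, 16.7%, against 38% and 28.2% of all genes. Between heart and muscle, 11 were lower in heart, 26.2%, and 2 higher, 4.76%, against 15% and 19.6%. That last count was 7 in both directions together without WT2, 8 without WT3 and 15 without WT1, in place of 13.

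The heart exceeded liver for more chains than the reverse. Against brain, the median difference over all tested chains was near that of all genes, but not over the chains above background on each array. Between liver and heart, 23 genes were lower in liver, 54.8%, and 5 higher, 11.9%, against 30% and 28.7% of all genes. Between brain and heart, 20 were lower in brain, 47.6%, and 13 higher, 31.0%, against 37.4% and 25.8%. Both shares were above those of all genes, and the median of brain minus heart was -0.28, against -0.3 over all genes. For the 29 chains above background on each WT array of brain and heart, the median was -2.95, against -0.42 over all such genes. Of these 29, 17 were lower in brain and 6 higher at an unadjusted p under 0.05. Between liver and brain, 17 were lower in liver, 40.5%, and 11 higher, 26.2%, against 31.5% and 41.8%. The balance turned for the 23 chains above background on each WT array of liver and brain. Of these 23, 5 were lower in liver and 9 higher at an unadjusted p under 0.05. Their median was 0.71, against 0.56 over all such genes.

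Among the fibrillar chains, those of types I and III ran in the order muscle, heart, liver and brain. *Col1a1* (NM_007742, chr11:94936224-94953042), the major chain of type I collagen, had WT levels of 4.29, 7.22 and 7.08 in muscle, 3.87, 5.39 and 5.13 in heart, 1.52, 1.11 and 2.71 in liver, and -0.23, 0.29 and 0.70 in brain. *Col1a2*, its partner chain, had WT means of 7.61 ± 1.23 in muscle, 5.98 ± 0.72 in heart, 2.71 ± 0.58 in liver and 2.39 ± 0.23 in brain (SD, n = 3 mice each). *Col3a1* had WT means of 6.17 ± 0.73, 5.48 ± 0.56, 3.01 ± 0.83 and -1.37 ± 0.43 in that order of tissues. Muscle and heart, the highest tissues in this order, did not pass the test for these 3 genes. For *Col1a2* muscle was above heart by 1.62 (log2, standard error 0.57, limma adjusted p = 0.052). A block for the mouse gave an adjusted p of 0.013. Liver and brain values of *Col1a2* overlapped, whereas each WT liver was above each WT brain for *Col1a1* and *Col3a1*.

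Other fibrillar chains had tissues of their own. *Col27a1*, a fibrillar chain best known from cartilage, was highest in liver, with WT levels of -0.38, -0.24 and 0.30 against -3.77 to -2.36 in brain. The difference to brain, the next tissue, was 3.00 (standard error 0.43), an 8.0-fold difference with an adjusted p of 7.5e-05. *Col24a1*, a minor fibrillar chain, was highest in muscle, at -1.42, -0.62 and -0.19, and above brain by 1.66 (standard error 0.63, adjusted p = 0.04). That call was lost without WT2, WT3 or on z-scores. *Col24a1* was above background on none of the 6 heart arrays.

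By the probes shown, the basement membrane chains *Col4a1* to *Col4a5* all had their highest WT mean in heart, then in muscle, liver and brain. Neighbours in that order did not always differ. *Col4a1* (chr8:11198423-11312889) was at 4.76, 4.50 and 4.70 in WT heart, 3.24, 4.44 and 4.10 in muscle, 0.49, 0.84 and 1.88 in liver and 0.08, 0.31 and 0.58 in brain. *Col4a2* had WT means of 4.46 ± 0.28 in heart, 3.48 ± 0.57 in muscle, 1.28 ± 1.01 in liver and 0.57 ± 0.29 in brain (SD, n = 3). For this pair heart was above muscle by 0.72 and 0.98, which did not pass the test (adjusted p = 0.19 and 0.14), and the ranges of liver and brain overlapped. Heart and muscle stood well above liver and brain for both genes.

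*Col4a3*, *Col4a4* and *Col4a5* encode the chains of the type IV network best known from kidney and lung. *Col4a5* (chrX:141475370-141689236) was at 1.55, 2.11 and 1.66 in WT heart and at -0.81, -0.16 and 0.11 in WT muscle. This was the largest step from heart to the next tissue among the type IV chains, 2.06 (standard error 0.29, adjusted p = 0.0003). *Col4a3* had WT means of -2.39 ± 0.70 in heart and -2.70 ± 0.29 in muscle and was above background on no brain array, and *Col4a4* had 0.98 ± 0.14 in heart and 0.55 ± 0.10 in muscle (SD, n = 3). By the probes shown for the 6 type IV genes, brain was lower than heart and lower than muscle for 6 of 6. Liver was lower than heart for 5 and lower than muscle for 5.

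**Figure D2:**
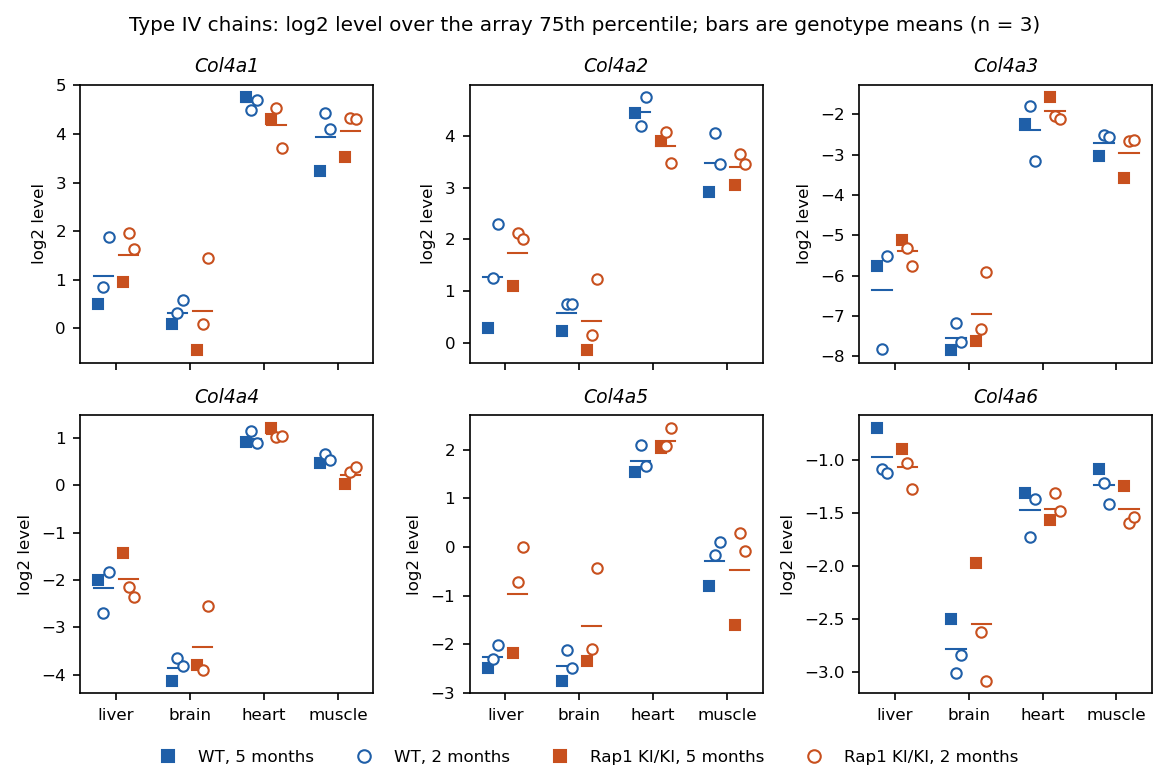
Log2 level of Col4a1 to Col4a6 in each of the 24 arrays (y axis) by tissue (x axis), with blue for WT, orange for Rap1 KI/KI, filled squares for 5-month-old and open circles for 2-month-old mice, and bars for the means of 3 mice. By the probes shown, Col4a1 to Col4a5 share the order heart, muscle, liver and brain of WT means, and Col4a6 does not.

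*Col4a6*, the sixth type IV chain, depended on the probe. The probe that stood for the gene had WT means of -0.97 in liver, -1.24 in muscle, -1.47 in heart and -2.78 in brain. A second, dimmer probe of the gene was highest in heart, at -0.61, and lowest in liver, at -5.41. The values of *Col4a6* below are those of the first probe unless the second is named.

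Among the beaded filament chains of type VI, *Col6a3* shared the WT order of types I and III, and *Col6a1*, *Col6a2* and *Col6a6* had their highest WT means in muscle and heart. *Col6a1*, which encodes a chain of the common type VI trimer, had WT means of 5.04 ± 0.65 in muscle, 4.74 ± 0.41 in heart, 1.77 ± 0.39 in liver and 1.79 ± 0.56 in brain (SD, n = 3). *Col6a3*, the long chain of that trimer, had 4.12 ± 0.60 in muscle, 2.75 ± 0.39 in heart, 0.74 ± 0.39 in liver and -1.53 ± 0.35 in brain. *Col6a2* had its highest WT mean in heart, 1.86 ± 0.74, with muscle at 1.65 ± 0.70, liver at -1.90 ± 0.77 and brain at -1.75 ± 0.22. Heart and muscle overlapped for *Col6a1* and *Col6a2*. By the probe shown, *Col6a4*, a chain related to *Col6a3*, was above background on all 6 brain arrays and on none of the other 18. Its brain mean was at least 3.0-fold above muscle (adjusted p = 2.7e-06), a bound set by the dimmest probes that were above background there. With normexp background correction the difference was 0.55, with an adjusted p of 0.068. A second probe of *Col6a4* was above background on no array of any tissue, with a WT mean of -8.01 in brain.

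The fibril-associated chains, which bind to the surface of fibrils, had their highest WT means in different tissues, most of them in muscle or brain, *Col14a1* in liver and *Col16a1* in heart. *Col22a1*, known from muscle and tendon junctions, was at 2.05, 3.85 and 3.83 in WT muscle, at -1.28, -1.14 and -0.89 in brain and at -3.18, -2.29 and -2.60 in heart, and was above background on no liver array. Muscle was above brain by 4.34 (standard error 0.45, adjusted p = 8.1e-06), a 20.3-fold difference. *Col9a2* and *Col9a3*, chains of the cartilage collagen type IX, were highest in brain instead. *Col9a2* was at 0.40, 0.21 and 0.53 in WT brain and at -1.86, -1.92 and -2.19 in liver, a difference of 2.37 (standard error 0.37, adjusted p = 0.00014). *Col9a3* was above background on the 6 brain arrays alone, at least 2.8-fold above muscle (adjusted p = 3.6e-07), and with normexp background correction this difference was 0.18, with an adjusted p of 0.49.

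*Col12a1*, which marks tendon and muscle connective tissue, was highest in muscle, at -1.85, 1.11 and 1.06 in the WT mice. It was above brain by 2.44 (standard error 0.91, adjusted p = 0.039), a call that was lost without WT2, without WT3 and on z-scores. *Col14a1*, which regulates fibril growth, had its highest WT mean in liver, 2.97 ± 0.30, with 2.19 ± 0.74 in heart, 1.45 ± 0.85 in muscle and -3.24 ± 0.37 in brain (SD, n = 3). Liver and heart values overlapped for *Col14a1*.

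Of the remaining classes, the multiplexin *Col18a1* gave the largest step between tissues among the genes highest in liver. *Col18a1*, a basement membrane heparan sulfate proteoglycan and the source of endostatin, was at 6.85, 6.51 and 6.42 in WT liver against 0.97, 2.21 and 2.02 in heart. The difference was 4.86 (standard error 0.39, adjusted p = 9.8e-07), or 29.1-fold, and its second probe gave the same order of liver above heart, with means of 7.04 and 1.29. *Col15a1*, the other multiplexin, was highest in heart, at a mean of -2.27 ± 0.12 against -3.05 ± 0.75 in muscle, which overlapped. The probe shown for it was above background on no brain array, and a dimmer probe on 2.

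*Col7a1*, the anchoring fibril chain, was highest in muscle, at 3.57, 3.08 and 2.99 in WT mice against -1.52, 0.38 and -0.06 in brain. The difference was 3.61 (standard error 0.50, adjusted p = 7.3e-05), or 12.2-fold. *Col8a1*, a short chain of vessel walls and heart valves, was at -0.43, 0.22 and -0.17 in WT heart and above muscle by 2.22 (standard error 0.58, adjusted p = 0.013). That call was lost without WT1 and without WT2. The membrane-spanning chain *Col25a1*, which occurs in neurons, was highest in brain, at -3.49, -0.16 and -0.32, and above heart by 2.59 (standard error 0.79, adjusted p = 0.016). *Col26a1*, first described in testis and ovary, was also highest in brain, at -0.18, 1.11 and 1.64, and above muscle by 1.89 (standard error 0.65, adjusted p = 0.026). Both calls were lost without WT2 or without WT3. *Col13a1*, a membrane-spanning chain of the neuromuscular junction, was above background on no muscle array.

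The labels gave the mice different ages, and the same 2 mice, WT1 and KI1, were the older ones in each tissue. In muscle most collagen chain genes had lower levels in these 5-month-old mice, and the values of many chains did not overlap those of the 4 younger mice. The median over the genes stayed negative in muscle, in brain and in the mean of 4 tissues with any 1 mouse left out, whereas it was 0.04 in liver without KI1 and 0.13 in heart without WT1. No gene of the group passed an adjusted p under 0.05 in any tissue in limma with genotype as a term, as was the case for all genes in brain, heart and muscle (0%) and for all but 1 gene in liver (0.00623% called). The lowest adjusted p among the collagen chain genes was 0.21 in liver, 0.75 in brain, 0.6 in heart and 0.51 in muscle. The values below are therefore descriptions of mice of which only 2 were older.

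In muscle, the 5-month minus 2-month difference was negative for 34 of the 37 genes tested, with a median of -0.87 (log2) against 0.10 over all genes tested there. At an unadjusted p under 0.05, 18 of the 37 were lower, 48.6%, against 2.53% of all genes, and 0 were higher, against 2.48%. For 20 genes both older mice lay below all 4 younger mice, against 5.77% of all genes. The count of 18 was 10 without WT1 and 17 to 24 without any other mouse, and the median was -0.62 without WT1. Among the 32 genes above background on each muscle array, 30 were negative, with a median of -0.89 and 17 at an unadjusted p under 0.05.

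**Figure D3:**
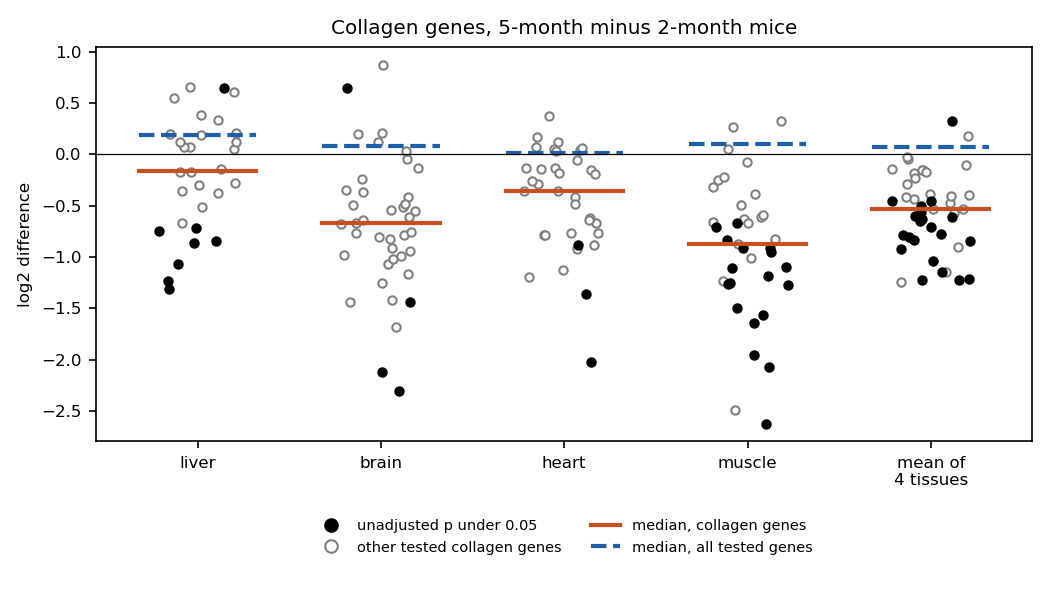
Log2 difference between 5-month-old and 2-month-old mice for each tested collagen chain gene (points, filled where the unadjusted p was under 0.05) in the 4 tissues and in the mean over tissues, with an orange line at their median and a dashed blue line at the median of all tested genes. The median was -0.87 in muscle and -0.16 in liver.

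The fibrillar chains made up a large part of this in muscle. *Col1a1* was at 4.29 in WT1 and 5.21 in KI1, against 7.22, 7.08, 6.82 and 6.17 in WT2, WT3, KI2 and KI3. Both older mice were below each younger mouse, and the difference was -2.07 (standard error 0.41, adjusted p = 0.62). *Col1a2* was at 6.19 and 6.57 in the older mice and at 8.46, 8.16, 7.96 and 7.20 in the younger ones, a difference of -1.56 (standard error 0.36, adjusted p = 0.71). *Col3a1* was at 5.33 and 5.02 against 6.54, 6.64, 6.90 and 6.62, a difference of -1.50 (standard error 0.22, adjusted p = 0.51). For *Col3a1* the 4 younger mice lay close together and both older mice were below them.

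*Col5a1*, *Col5a2* and *Col5a3* encode the chains of type V, which is built into type I fibrils and limits their diameter. *Col5a2* (chr1:45374331-45503282), 24624 bases from *Col3a1* in the annotation, was at -2.02 in WT1 and -1.96 in KI1, against -0.28, -0.44, 0.09 and -0.76 in the younger muscles. Its difference was -1.64 (standard error 0.29, adjusted p = 0.57), and those of *Col5a1* and *Col5a3* were -1.11 and -1.10. Both older muscles were below each younger muscle for these 3 genes as well. Over the 11 fibrillar chains, 11 were negative in muscle, with a median of -1.50, and 7 had an unadjusted p under 0.05. *Col2a1*, the cartilage chain, had the largest of these differences, -2.62 (standard error 0.79, adjusted p = 0.79), and was not above background in the muscle of WT1.

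**Figure D4:**
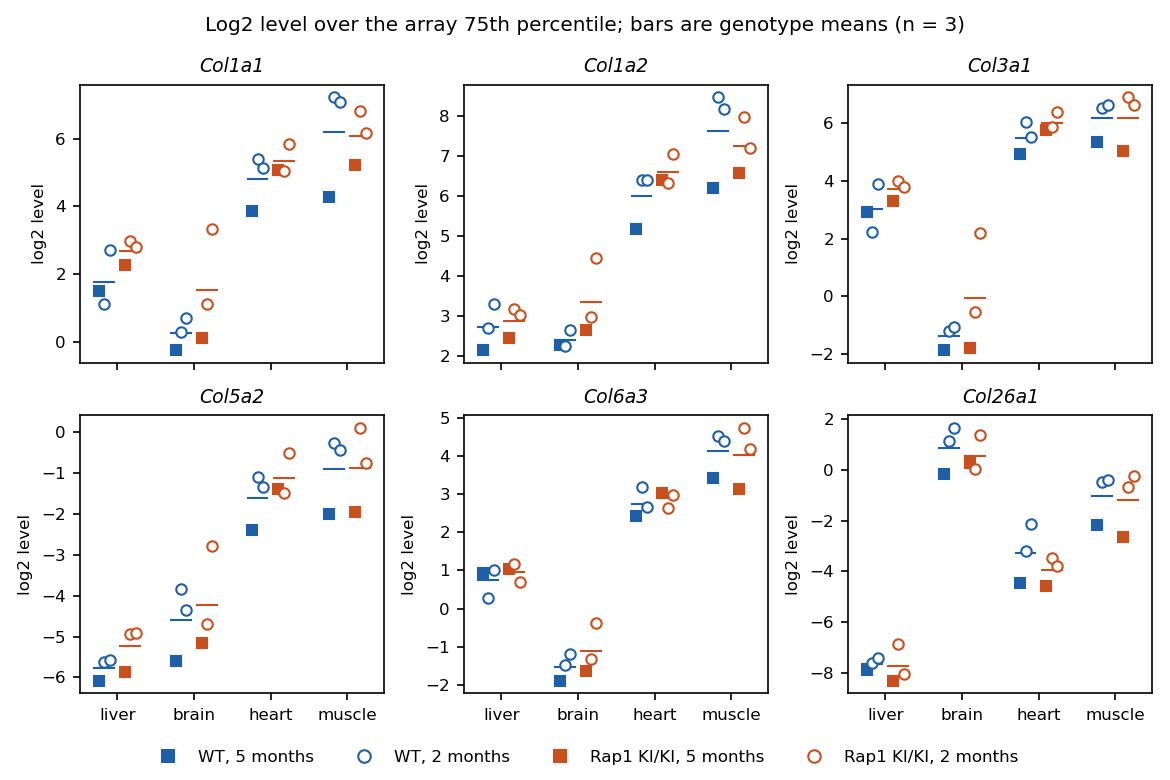
Log2 level of Col1a1, Col1a2, Col3a1, Col5a2, Col6a3 and Col26a1 (y axis) in each mouse by tissue (x axis), with blue for WT, orange for Rap1 KI/KI, filled squares for 5-month-old and open circles for 2-month-old mice, and bars for the means of 3 mice. In muscle both older mice lie below the 4 younger mice for all 6 genes.

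The type VI chains of muscle had the same sign. *Col6a3* was at 3.43 in WT1 and 3.13 in KI1, against 4.53, 4.40, 4.73 and 4.19, a difference of -1.18 (standard error 0.24, adjusted p = 0.65). *Col6a1* and *Col6a2* differed by -0.91 and -0.95. *Col14a1* was at 0.50 and 0.81 in the older muscles, against 1.74, 2.12, 2.13 and 1.71, a difference of -1.27 (standard error 0.24, adjusted p = 0.61). The dimmer second probe of *Col14a1* gave -0.31. *Col26a1* had the smallest p in muscle. It was at -2.18 in WT1 and -2.65 in KI1, against -0.50, -0.42, -0.69 and -0.26, a difference of -1.95 (standard error 0.23, adjusted p = 0.51).

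Most basement membrane chains of muscle also had negative differences. *Col4a1* was at 3.24 and 3.53 against 4.44, 4.10, 4.33 and 4.31, a difference of -0.91 (standard error 0.21, adjusted p = 0.71). *Col4a5* differed by -1.25, *Col4a3* by -0.71 and *Col4a2* by -0.67. Of the 6 type IV genes 5 were negative in muscle, with a median of -0.69. The chains with positive values in muscle were *Col19a1* at 0.05, *Col4a6* at 0.27, for which the second probe gave -0.65, and *Col7a1* at 0.32, none with a p under 0.05.

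Fibroblast, tendon and cartilage markers were measured beside these muscle values. The fibroblast marker sum, on the linear scale, was 484 in WT1 and 411 in KI1, against 558, 582, 588 and 405 in WT2, WT3, KI2 and KI3. Of the 8 fibroblast markers 7 were tested, 7 had negative age differences, with a median of -0.26, and 2 had a p under 0.05, *Pdgfra* at -0.61 and *Lum* at -0.76. *Tcf21* was above background on no muscle array. The tendon marker sum was 17.4 and 55.8 in the older muscles, against 101, 63.9, 33.8 and 20.6, and its 6 genes had a median difference of -1.02, 5 of them negative and 0 with a p under 0.05. The cartilage and bone sum was 0.746 and 8.53 against 22.2, 10.5, 3.86 and 1.49, most of it from *Comp*, which is also a tendon marker, with *Sp7* and *Cnmd* above background on no muscle array. The older and younger ranges of all 3 sums overlapped, and the share of these cells in the collagen differences was not tested. The cardiomyocyte marker sum of the muscles did not overlap between the ages, at 112 in WT1 and 47.0 in KI1. In WT2, WT3, KI2 and KI3 that sum was 512, 656, 564 and 925, and its part in the collagen differences was not tested either. *Col2a1* and *Col11a1* were highest in WT2 and WT3, the muscles with the highest tendon and cartilage sums, at -0.90 and -0.90 for *Col2a1* and -1.08 and -1.38 for *Col11a1*. The adipocyte sum ran from 92.0 to 936 over the 6 muscles, with 756 in WT1 and 290 in KI1.

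The other tissues had fewer low p-values and smaller medians. In liver the median difference was -0.16 over 30 genes, against 0.19 over all genes. Of these 7 were lower at an unadjusted p under 0.05, 23.3%, against 5.99% of all genes, and 1 was higher, 3.33%, against 11.9%. The count of 7 was 2 without KI1, 3 without WT1, 4 without KI2 and up to 10 without WT2. *Col4a2* was at 0.29 in WT1 and 1.09 in KI1, against 1.26, 2.30, 2.12 and 2.00, a difference of -1.23 (standard error 0.33, adjusted p = 0.21). *Col1a2*, *Col4a1*, *Col4a5*, *Col6a2* and *Col5a2* were lower by smaller amounts, from -1.07 to -0.72. *Col13a1* was above background in 3 younger livers and in neither older liver, at least 2.1-fold lower (adjusted p = 0.21). *Col17a1*, the hemidesmosome chain, was the gene with a higher value, by 0.65 (standard error 0.23, adjusted p = 0.26). It was above background on 3 of the 6 liver arrays, and this count of 1 was 0 without WT1, WT2, KI1 or KI3 and 3 without WT3.

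In brain the median was -0.67 over 40 genes, against 0.08, and 34 of 40 were negative. The younger mouse KI3 had the highest level of 25 of the 40 genes and the highest fibroblast marker sum, 45.0 against 21.0 to 31.2. Without it the median was -0.44, 33 of 40 were negative and 4 were lower at an unadjusted p under 0.05, and its part in the age difference was not tested. With all mice 3 were lower at an unadjusted p under 0.05, 7.5%, against 1.49% of all genes, and 1 was higher, 2.5%, against 1.48%. The count of 3 was 22 without KI2, 5 without KI1, 2 without WT1 and 1 without WT2 or WT3. *Col25a1* was at -3.49 in WT1 and -2.66 in KI1, against -0.16, -0.32, -2.62 and -0.71, so that KI2 lay close to KI1. Its difference was -2.12 (standard error 0.71, adjusted p = 0.75), and that of *Col5a2* was -1.44. The 3 dimmer probes of *Col25a1* gave -0.51, -0.44 and -0.39. *Col6a5*, a chain related to *Col6a3*, was above background in the 4 younger brains and in neither older brain, at least 1.7-fold lower (adjusted p = 0.75). A second probe of *Col6a5* was above background on no array. *Col4a6* was higher by 0.65 (standard error 0.24, adjusted p = 0.75), whereas its second probe gave -0.75. The 1 higher gene was lost without KI1, KI3 or WT3. Slide and age coincide in the brain and cannot be told apart there.

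In heart the median was -0.36 over 35 genes, against 0.01, and 27 of 35 were negative. Without WT1 the median was 0.13 and 16 of 35 were negative. The fibroblast marker sum of heart was 404 in WT1 and 507 in KI1, against 579, 621, 571 and 617 in WT2, WT3, KI2 and KI3, so that both older hearts were below each younger heart. Of 8 fibroblast markers 6 were negative, with a median of -0.28 and 0 at an unadjusted p under 0.05, and their part in the collagen differences was not tested. At an unadjusted p under 0.05, 3 were lower, 8.57%, against 2.74% of all genes, and 0 were higher, against 1.43%. The count of 3 was 11 without KI2, 7 without KI1, 2 without WT2, WT3 or KI3 and 1 without WT1. *Col26a1* was at -4.44 in WT1 and -4.59 in KI1, against -3.18, -2.15, -3.49 and -3.80, a difference of -1.36 (standard error 0.38, adjusted p = 0.61). *Col1a1* was at 3.87 and 5.08 against 5.39, 5.13, 5.05 and 5.85, a difference of -0.88 (standard error 0.36, adjusted p = 0.71), in which KI1 lay within the range of the younger hearts. Within the slide that held 4 of the hearts of both ages, the differences were -1.18 and -0.74. *Col28a1*, a chain found around Schwann cells, was above background in 3 younger hearts and in neither older heart, at least 2.3-fold lower (adjusted p = 0.6).

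Averaged over the 4 tissues of each mouse, 42 of 44 genes had negative differences, with a median of -0.53 against 0.07 over all genes. At an unadjusted p under 0.05, 20 were lower, 45.5%, against 5.08%, and 1 was higher, 2.27%, against 5.95%. The count of 20 was 9 without WT1 and 18 to 25 without any other mouse, and the 1 higher gene, *Col4a6*, was lost without any mouse but KI2. In 25 genes the older mice lay below all 4 younger ones, against 9.43% of all genes. None passed the adjusted threshold (0% of all genes did), and the lowest adjusted p was 0.31. *Col26a1* differed by -1.22 (standard error 0.17), *Col5a2* by -1.15, *Col1a1* by -1.22 (standard error 0.21) and *Col1a2* by -0.92. *Col4a6* and *Col17a1* were the exceptions, at 0.32 and 0.18. The second probe of *Col4a6* gave 0.02 in liver, -0.75 in brain, -1.04 in heart and -0.65 in muscle.

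The genes were also ranked within each tissue by mouse. WT1 was the lowest of the 6 mice for 25 of 40 genes in brain, 62.5%, against 15.2% of all genes, for 23 of 35 in heart, 65.7%, against 18.4%, and for 17 of 37 in muscle, 45.9%, against 12.8%. KI1, the other older mouse, was the lowest for 14 of 37 in muscle, 37.8%, against 9.73%. In brain KI1 was the lowest for 5 genes, 12.5%, against 10.4% of all genes, and in heart for 2, 5.71%, against 11%, which were near or under the share of all genes. In liver the younger mouse WT2 was the lowest for 12 of 30, 40%, against 27.3%, WT1 for 9, 30%, against 12.8%, and KI1 for 1, 3.33%, against 7.72%. The lowest ranks thus belonged mostly to both older mice in muscle, to WT1 in brain and heart, and to WT2 and WT1 in liver. Brain and heart differed without WT1. The 5-month minus 2-month median was then -0.6 in brain, with 33 of 40 genes negative, and 0.13 in heart.

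Genes that act on collagen were compared in the same fits. Of 11 genes tested for processing and cross-linking of collagen in muscle, 11 were negative, with a median of -0.74, and 6 had a p under 0.05. Of all genes, 37.7% were negative and 2.53% were lower at that p. The count of 6 was 4 without KI2, WT2 or WT3 and 7 without KI3. Without WT1 or KI1, which left a single older mouse, the median was -0.53 and -0.74. *Loxl2*, a lysyl oxidase that cross-links collagen, was at 2.06 in WT1 and 1.77 in KI1, against 3.40, 2.97, 3.40 and 2.58, a difference of -1.18 (standard error 0.30, adjusted p = 0.75). *Adamts2* and *Adamts14*, which cleave the amino propeptide, differed by -0.84 and -0.93, and *Bmp1*, which cleaves the carboxy propeptide, by -0.74. Both older mice were below each younger mouse for *Loxl2*, *Adamts2*, *Adamts14* and *Bmp1*. In the mean over 4 tissues 5 of 12 had a p under 0.05 in the lower direction, against 5.08% of all genes, with *Loxl2* at -0.79 and *Adamts14* at -0.69. That count of 5 was 3 without WT3. The median of the 12 was -0.30, and it was -0.29 without WT1 and -0.48 without KI1.

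The other lists had lower shares at an unadjusted p under 0.05 in muscle, to be read against the same 37.7% and 2.53% of all genes. Of 21 genes for modification and folding, 12 were negative and 2 had a p under 0.05, *Fkbp10* at -0.94 and *P3h3* at -0.83, both partners of collagen hydroxylation in the endoplasmic reticulum. Of 11 fibril-binding matrix genes, 11 were negative and 2 had a p under 0.05, *Lum* at -0.76 and *Sparc* at -0.76. Of 11 genes for degradation and its inhibitors, 9 were negative and 2 had a p under 0.05, the protease *Ctsk* at -1.04 and the inhibitor *Timp1* at -1.33. Of 7 receptors, 5 were negative and 1 had a p under 0.05, *Itga10* at -0.86. Of 12 genes of TGF-beta and its response, 5 were negative and 0 had a p under 0.05, with a median of 0.09. None of these genes passed the adjusted threshold.

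Whether the knockin allele was accompanied by other collagen levels was asked within each tissue. No collagen chain gene passed an adjusted p under 0.05 between *Rap1* KI/KI and WT mice in the liver, brain, heart or muscle, and 0% of all genes did in each. The *Rap1* KI/KI minus WT median was 0.17 in liver (30 genes), 0.30 in brain (40 genes), 0.11 in heart (35 genes) and -0.18 in muscle (37 genes), against 0.03, 0.01, -0.08 and -0.07 over all genes. The sign of the median turned in heart without WT1, to -0.13, and in muscle without KI1, WT2 or WT3, to 0.06, 0.10 and 0.03. At an unadjusted p under 0.05, the genes numbered 1 higher and 0 lower in liver, 3 and 0 in brain, 1 and 3 in heart and 0 and 1 in muscle. Genes without overlap of the genotypes numbered 4 higher and 0 lower in brain, against 983 and 500 of all 17015 genes tested. In heart they numbered 1 and 3, against 544 and 1884 of 16073, so the lower share was under that of all genes. In muscle they numbered 1 and 2, against 384 and 603 of 15232, and in liver 0 and 0, against 536 and 303 of 16042.

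**Figure D5:**
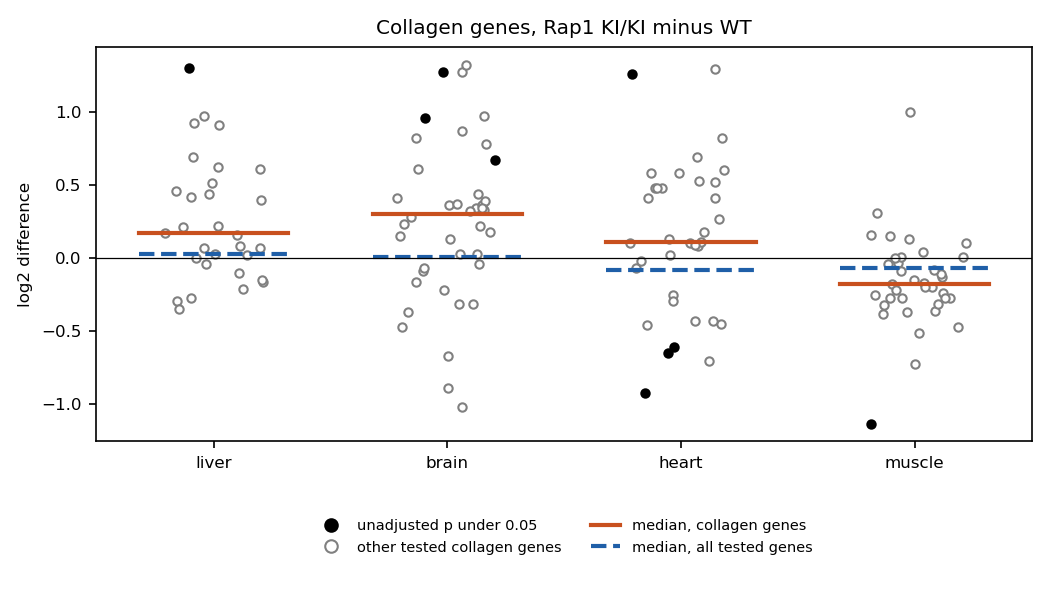
Rap1 KI/KI minus WT difference in log2 level for each tested collagen chain gene (points, filled where the unadjusted p was under 0.05) in the 4 tissues, with an orange line at their median and a dashed blue line at the median of all tested genes. Their median was 0.30 in brain and -0.18 in muscle.

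In brain, the 3 genes were 7.5% of those tested, against 1.69% of all genes higher and 0.946% lower. *Col18a1* was at 1.73, 0.90 and 1.37 in the *Rap1* KI/KI brains and at -0.18, 0.75 and -0.38 in the WT brains. The difference was 1.27 (standard error 0.37, adjusted p = 1), and the second probe gave 1.21. *Col8a1* was at -3.13, -3.21 and -2.33 against -4.11, -3.57 and -3.86, a difference of 0.96 (standard error 0.30, adjusted p = 1). For both genes each *Rap1* KI/KI brain was above each WT brain. *Col9a3* differed by 0.67 (standard error 0.22) and *Col1a2* by 0.97 (standard error 0.48), also without overlap of the groups. On the slide of the 4 younger brains the differences of *Col18a1*, *Col8a1*, *Col9a3* and *Col1a2* were 0.95, 0.94, 0.70 and 1.26, and on the slide of the older pair 1.91, 0.98, 0.61 and 0.38. The choroid plexus marker sum did not overlap between the genotypes in brain either. That sum was 8.01, 5.96 and 6.37 in KI1, KI2 and KI3 and 4.65, 5.89 and 3.33 in WT1, WT2 and WT3. Its part in the levels of these genes was not tested. *Col8a2*, the partner of *Col8a1* in type VIII collagen, differed by 0.61 and *Col6a4* by -1.02, with overlapping groups. The count of 3 higher genes was 7 without KI1 and 1 without WT3, and 4 genes were lower without WT1 and 2 without KI3, in place of 0.

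The brain median rested on KI3 and WT1. This mouse was the highest of the 6 brains for 25 of the 40 genes, 62.5%, against 20.2% of all genes, and without it the median was -0.09. Without WT1, the lowest mouse for 25 genes, the median was -0.03. *Col1a1* was at 3.34 in the brain of KI3 and between -0.23 and 1.13 in the other 5, and *Col3a1* was at 2.18 against -1.86 to -0.53. *Timp1* was at 1.22 there and between -3.73 and -3.11 in the others, and *Loxl2* at -0.37 against -3.63 to -2.71. Markers of stromal cells moved with these values. In KI3 the fibroblast sum was 45.0 against 21.0 to 31.2, the pericyte and smooth muscle sum 19.9 against 11.3 to 13, and the hepatic stellate list summed to 9.19 against 2.58 to 3.04. The leptomeningeal sum, which *Ptgds* dominates, was lowest in KI3, 165 against 187 to 272, whereas its other 5 genes were highest there, *Ogn* at 1.16 against 0.13 to 0.79 and *Slc6a13* at 2.13 against 0.53 to 1.56. *Dpt* was above background on no brain array. The part of these cells in the collagen levels was not tested.

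In heart, 3 genes were lower, 8.57%, against 3% of all genes, and 1 was higher, 2.86%, against 2.47%. *Col11a2*, a chain of the cartilage fibril collagen type XI, was at -4.44, -4.54 and -4.01 in the *Rap1* KI/KI hearts and at -3.21, -3.93 and -3.09 in the WT hearts. Its groups did not overlap, and the difference was -0.92 (standard error 0.30, adjusted p = 0.65). *Col4a2* differed by -0.65 (standard error 0.26, adjusted p = 0.65), and its neighbour *Col4a1* by -0.46 (adjusted p = 0.67). *Col8a1* was at -0.67, -0.56 and -0.99 against -0.43, 0.22 and -0.17, a difference of -0.61 (standard error 0.25, adjusted p = 0.65). *Col18a1* was at 3.59, 2.01 and 3.38 against 0.97, 2.21 and 2.02, a difference of 1.26 (standard error 0.51, adjusted p = 0.65), with KI2 inside the WT range, and its second probe gave 1.37. On the slide with 4 hearts the differences of *Col11a2*, *Col4a2*, *Col8a1* and *Col18a1* were -0.92, -0.33, -0.51 and 1.21, and on the other slide -0.93, -1.28, -0.82 and 1.36. Endothelial markers were measured beside these vessel-wall chains, and 5 of 5 had negative differences in heart, with a median of -0.44 and 0 at an unadjusted p under 0.05. Their sum was 33.5, 37.4 and 24.5 in the *Rap1* KI/KI hearts and 49.6, 37.5 and 48.1 in the WT hearts, and its part in the levels of *Col4a1*, *Col4a2* and *Col8a1* was not tested. The count of 3 lower genes was 0 without KI1 and 1 without KI2, KI3 or WT3. The 1 higher gene was lost without KI3, WT1 or WT3 and became 2 without WT2. These counts use the probes shown. The second probe of *Col4a6* differed by 1.74 in heart, against 0.02 for the probe shown. In liver, brain and muscle it gave 0.89, 1.04 and -0.28, against -0.10, 0.23 and -0.22.

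*Col18a1* was highest in the hearts of KI1 and KI3, which were also the hearts with the highest adipocyte sums, 170 and 382 against 1.16 to 35.9 in the others. Of 6 adipocyte markers 5 were tested and 5 were higher in *Rap1* KI/KI hearts at an unadjusted p under 0.05, among them *Adipoq* at 4.33 (standard error 1.57, adjusted p = 0.65). The pericyte and smooth muscle sum was highest in the same hearts, 337 in KI1 and 219 in KI3 against 123 to 146. Their part in the level of *Col18a1* was not tested. *Col14a1*, with -0.67 by age and 0.82 by genotype in heart, did not have a p under 0.05 in either.

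In liver, *Col4a5* was the 1 gene with an unadjusted p under 0.05, 3.33% of 30, against 1.49% of all genes higher and 0.555% lower. It was at -2.17, -0.72 and 0.01 in KI1, KI2 and KI3 and at -2.48, -2.30 and -2.01 in the WT livers, so that KI1 lay among the WT values. The difference was 1.30 (standard error 0.52, adjusted p = 1). *Col1a1* differed by 0.91 (standard error 0.43), and *Col12a1*, *Col15a1*, *Col5a1* and *Col4a3* by 0.61, 0.92, 0.42 and 0.97, with overlapping groups. The count of 1 was 0 without KI2 or WT2, 3 without KI1 and 4 without WT3. Pericyte and smooth muscle markers were positive in liver for 6 of 6, with a median of 0.31, and Acta2 at 1.16 and Myh11 at 0.85 had an unadjusted p under 0.05 without overlap of the groups. Their sum was 13.3, 19.4 and 19.6 in KI1, KI2 and KI3 and 10.9, 12.8 and 22.5 in the WT livers, and its part in the level of *Col4a5* was not tested.

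In muscle, *Col9a1*, a chain of type IX collagen, was the 1 lower gene, 2.7% of 37, against 0.794% of all genes, with 0 higher against 1.59%. It was at -3.97, -3.34 and -3.91 in the *Rap1* KI/KI muscles and at -2.81, -2.19 and -2.84 in the WT muscles. The groups did not overlap, and the difference was -1.13 (standard error 0.28, adjusted p = 0.94). A dimmer second probe of *Col9a1*, above background on 1 muscle array, gave -0.15. *Col25a1* differed by 1.00, with its largest value, -3.47, in the muscle of KI3, where the neuron marker sum was 55.9 against 11.5 to 18.5. *Col4a4* and *Col20a1* did not overlap between genotypes in muscle, at -0.32 and 0.31, and *Col7a1* and *Col4a6* differed by -0.47 and -0.22. Without WT1 the count of lower genes was 9 in place of 1, and without WT3 1 gene was higher in place of 0.

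Whether a genotype difference varied between tissues was tested with the interaction over all 24 arrays. No collagen chain gene passed the adjusted threshold, as was the case for 0% of all genes, and 1 of 44 had an unadjusted p under 0.05, against 2.88% of all genes. That gene was *Col9a3* (adjusted p = 1). *Col6a4* and *Col18a1* came next, also with an adjusted p of 1.

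Genes acting on collagen gave no adjusted call between genotypes either. In brain, 9 of 9 fibril-binding genes and 12 of 12 TGF-beta genes tested had positive differences, with medians of 0.49 and 0.30, and 0 of each had a p under 0.05, where 51.8% of all genes were positive. Without KI3, which had the highest fibroblast marker sum, 8 of 9 and 9 of 12 were positive, with medians of 0.25 and 0.23. In heart, *Bgn*, a small proteoglycan of fibrils, was at 3.07, 1.95 and 2.6 in the *Rap1* KI/KI mice and at 1.67, 1.46 and 0.76 in the WT mice, a difference of 1.24 (standard error 0.37, adjusted p = 0.65). Its groups did not overlap. *Lox*, a lysyl oxidase, differed by 1.12 in heart (adjusted p = 0.65), *Tgfb1* by -0.94 and *Colgalt1*, which glycosylates collagen, by -0.55, with the same adjusted p. In muscle *Pcolce2*, an enhancer of propeptide cleavage, differed by -0.67 and *Ski*, a repressor of TGF-beta signalling, by -0.79, both with an adjusted p of 0.94. In liver none of the 6 lists had a gene with an unadjusted p under 0.05.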

How the data were processed

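The arrays were 1-colour Agilent mouse arrays, read for 24 RNA samples. The intensity values that the authors deposited are processed signals of Feature Extraction 12.0.3.1, with the background subtracted spot by spot and with no normalization between arrays. The authors also deposited scores, which recomputation showed to be z-scores of the log10 signals within each array, to within 0.005. The deposited signals were converted here to log2 levels relative to the 75th percentile of each array. Besides 3671 control spots, which were left out as were flagged outliers, an array carries 55681 probes, of which 28325 were named through RefSeq accessions (GRCm38.p6). The number of arrays limits the precision.

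Probes well above background on at least 3 arrays of a fit were tested with limma 3.58.1 in R 4.3.3 (statmod 1.5.0, the data.table package, version 1.17.8), two-sided, with Benjamini-Hochberg adjustment over all tested probes. Shares of all genes use 1 probe per gene. Genotype was compared within tissue, age with genotype as a term, and tissues over the 12 arrays of a genotype. A group above background on no array has only a bound, the higher of its own signal and the dimmest signal above background, given as "at least". The procedure was tested on simulated data. The same mice, by the animal numbers in the labels, gave all 4 tissues, so tissues are paired by mouse. Correlations between 2 tissues of a mouse ran from -0.17 to 0.18 (median 0.03, 4 of 36 above 0.1), with a consensus correlation of 0.0243.

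Named are the chains of types I, III, IV and VI, and in each genotype comparison the 6 and in each age comparison the 8 genes with the smallest p. In each tissue the 5 genes with the largest step to the next tissue are named, and in a comparison up to 3 genes of each other list. *Loxl2*, *Adamts2*, *Adamts14* and *Bmp1* are all named for muscle by age, which is more than that limit. Collagen chain genes and lists were chosen with earlier results of these data known. *Col2a1*, *Col11a1*, *Col5a1*, *Col5a3*, *Col28a1*, *Col16a1*, *Col6a6* and *Col20a1* are also named where a list or exception needs them, after their values were seen. Alternatives were quantile normalization, normexp background correction (offset 50), the z-scores, other filters, other fits, slide or mouse as a block, and leaving out each mouse.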

Additional observations from a re-analysis of the deposited data

Results flagged for a closer look

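*Col8a1*, the short chain of vessel walls and valves, moved in opposite directions between genotypes in brain and heart. Each *Rap1* KI/KI brain was above each WT brain, by 0.96 on average, and each *Rap1* KI/KI heart was below each WT heart, by 0.61 on average (a value of -0.61), so that the differences lay 1.57 apart on the log2 scale. The interaction of genotype and tissue over all 24 arrays had an adjusted p of 1 in limma. It was found by looking for genes with such opposite signs, and the part of vessel or stromal cells in it was not tested. Groups of 3 mice were not searched for single outlying values.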

How the results depend on the processing

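In the genotype and age comparisons, the count of collagen chain genes past the adjusted threshold was 0 in all 138 alternative fits. Of 1047 alternative values of 84 named differences, 1027 kept their direction and their side of the threshold, 14 kept the direction and lost the call, 4 gained one (*Col1a2*, heart minus muscle) and 2 changed sign. Most of the 84 were genotype or age differences, which were called in no fit, so for these only a change of sign could show. The 14 lost calls were all of tissue differences. The sign changes were in dim genes with normexp background correction, which gave -0.13 for *Col4a3* between genotypes in liver and 0.11 for *Col13a1* between ages in brain, and the cause was not tested. Requiring signal above background on each array left 23 of 42 genes in the WT tissue fits and gave 14, 15, 21, 18, 20 and 7 calls for liver against brain, liver against heart, liver against muscle, brain against heart, brain against muscle and heart against muscle, 23 among WT tissues, and 25 of 25 among *Rap1* KI/KI tissues. Heart against muscle gave 7 to 15 calls with a WT mouse left out. With the mouse as a block, the pairs gave 30, 27, 33, 34, 31 and 16 calls and the WT tissues 41, and the genotype fits of all 24 arrays gave 0; besides *Col1a2*, no named tissue call was gained or lost under this block. Counts at an unadjusted p under 0.05 were less stable. Over all alternatives the lower genes by age numbered 10 to 24 in muscle, 1 to 22 in brain, 1 to 11 in heart, 2 to 10 in liver and 9 to 25 in the mean of 4 tissues. With 1 spread for all 24 arrays, the count in brain was 14.

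Signal over background limits the dim genes, such as *Col10a1*, *Col28a1* and *Col6a5*, whose levels in most tissues are bounds. Only 2 mice were 5 months old, the labels give no litter, and in the brain age and slide cannot be told apart. A normalization to the 75th percentile removes any change in total RNA per tissue.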
